A study of Arabidopsis thaliana with 16 samples.

Results

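The effect of warmth shared by 4 Arabidopsis thaliana genotypes was measured in hypocotyls, the stems between root and seed leaves, by setting all 8 mRNA libraries from 28 °C against all 8 from 22 °C with genotype as a blocking factor. These are 16 of the 16 libraries of the study, 2 for each of 8 combinations of genotype and temperature. Seedlings of 6 days had been kept at one of the temperatures throughout, on plates with 16 h of white light and 8 h of dark. Col-0 was the wild type. The mutant brl3-2 carries a T-DNA insertion in BRL3, a receptor kinase for the steroid hormone brassinosteroid that is related to BRI1. The line pSUC2:BRL3;brl3-2, written pSUC2-BRL3 here, carries BRL3-GFP in the mutant background under a promoter active in phloem companion cells. BRL3ox expresses BRL3-GFP from the general 35S promoter. No genotype other than Col-0 is free of a mutation or transgene at BRL3, so a shared change is one seen across wild-type, mutant and transgenic BRL3. BRL3 levels matched the labels: they were 10.5 to 28.8 CPM (counts relative to the scaled size of the library) in Col-0, 0.531 to 1.04 in brl3-2, 38.6 to 178 in pSUC2-BRL3 and 715 to 2478 in BRL3ox. The study's design text calls the replicates biological without saying how they were kept apart or pooled, and p-values therefore measure the spread between these samples.

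Warm ambient temperature makes the Arabidopsis hypocotyl grow long, a response called thermomorphogenesis. In the textbook route heat speeds the loss of active phytochrome B and weakens the evening complex of the clock, which frees the transcription factor PIF4 to switch on auxin synthesis and growth genes through G-box elements in their promoters. Auxin, brassinosteroid and gibberellin then loosen the wall of elongating cells. The circadian clock runs on morning factors (CCA1, LHY) and evening factors (TOC1, the evening complex), and the morning factors act through the evening element.

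Libraries held 19013878 to 22791228 counts at 22 °C (median 20964023) and 23021365 to 26563600 at 28 °C (median 24110968), with no overlap (exact two-sided permutation within genotypes, 1296 arrangements, p = 0.00154, the smallest they allow). Between 21664 and 22656 genes had a count at 22 °C and between 22639 and 23046 at 28 °C. Warmth was the main axis of variation, since the temperatures separated on the first principal component (53.7% of the variance, against 15.1% on the second). Replicate 2 of BRL3ox at 22 °C stood apart from the other 15 libraries, at -19.66 on the first component and -103.4 on the second. It was the lowest of the 8 cool libraries for 59.6% of the genes that fell at least 2-fold. Replicate 2 of pSUC2-BRL3 at 28 °C lay nearest to the cool libraries among the warm ones, at 43.07 on the first component, and was the highest of the 8 for 35.3% of those genes. Counts without these libraries are given where they change a result.

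**Figure D1:**
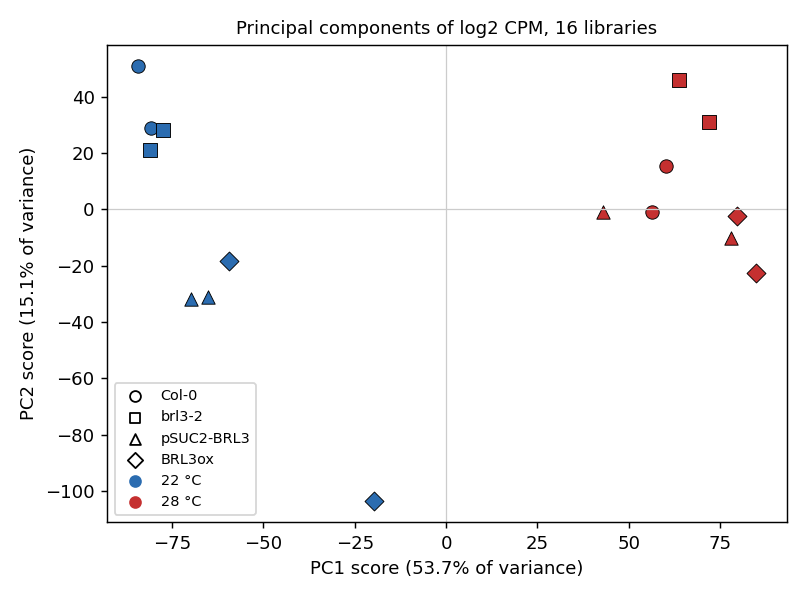
Scores of the 16 libraries on the first and the second principal component of log2 CPM (axes, with the percent of variance), coloured by temperature and shaped by genotype. All 8 libraries at 22 °C lie below 0 and all 8 at 28 °C above 0 on the first component, with replicate 2 of BRL3ox at 22 °C at -19.66.

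Most of the expressed transcriptome differed between the temperatures. Of 20505 genes tested, 13436 (65.5%) were called, meaning a Benjamini-Hochberg adjusted p below 0.05 in edgeR's quasi-likelihood test. Of these, 6897 rose at 28 °C (33.6% of the genes tested) and 6539 fell (31.9%). At least 2-fold changes were fitted for 4878 of them (23.8%), 2481 higher (12.1%) and 2397 lower (11.7%). A change of 4-fold or more was fitted for 616 rises and 611 falls, and of 16-fold or more for 50 rises and 74 falls. In 2377 genes every library at 28 °C lay above every library at 22 °C (11.6%), and in 2357 every one lay below (11.5%). All of these 4734 separated genes were also called.

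The balance of rises and falls rests on scaling. The TMM factors, which edgeR uses to make libraries comparable, lay between 0.7364 and 0.8971 in the cool libraries and between 1.162 and 1.267 in the warm ones. With libraries scaled to their total counts instead, an alternative added after these factors were seen, 13023 genes were called higher and 2580 lower, so that 83.5% of the calls were rises against 51.3% with TMM. That scaling raised the log2 change of the median gene by 0.574. All 2481 rises of at least 2-fold were still called higher, and 2151 of the 2397 falls of at least 2-fold were still called lower. Smaller falls moved more: of all 6539 genes that fell with TMM, 2580 stayed lower and 835 turned higher. The 100 genes with the most counts held 34.8% to 40% of a library's counts at 22 °C and 20.3% to 25.9% at 28 °C, and their part in the scaling was not tested. Of all genes tested, total-count scaling called 63.5% higher and 12.6% lower, against 33.6% and 31.9% with TMM, and the gene list counts below are to be read against these shares. All changes below are relative to TMM scaling, and CPM use the TMM-scaled size of the library. Where 3 levels are given for a temperature, they are the lowest, the median and the highest of its 8 libraries.

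The promoters below belong to genes among the largest changes that hold a G-box or an evening element in the 250 bases before the annotated start. They are RefSeq sequence of build TAIR10.1, read 5′ to 3′ on the strand of the gene, with CACGTG (the G-box, bound by PIF and HY5 proteins) or AAATATCT (the evening element) in capitals on either strand. FKF1 and JAL22 rose with warmth, and TT4, DFR and SP1L4 fell.
FKF1, chr1:25508389-25508638, plus strand: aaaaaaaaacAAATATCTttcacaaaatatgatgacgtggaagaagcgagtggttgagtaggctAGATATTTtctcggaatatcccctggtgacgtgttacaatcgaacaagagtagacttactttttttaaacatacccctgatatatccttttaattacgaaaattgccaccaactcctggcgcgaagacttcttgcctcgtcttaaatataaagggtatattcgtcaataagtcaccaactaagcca
JAL22, chr2:16416846-16417095, minus strand: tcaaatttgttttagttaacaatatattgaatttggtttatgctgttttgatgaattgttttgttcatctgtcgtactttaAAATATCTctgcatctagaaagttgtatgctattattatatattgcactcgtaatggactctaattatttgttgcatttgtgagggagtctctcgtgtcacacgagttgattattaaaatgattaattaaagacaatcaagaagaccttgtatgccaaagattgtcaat
TT4, chr5:4488226-4488475, plus strand: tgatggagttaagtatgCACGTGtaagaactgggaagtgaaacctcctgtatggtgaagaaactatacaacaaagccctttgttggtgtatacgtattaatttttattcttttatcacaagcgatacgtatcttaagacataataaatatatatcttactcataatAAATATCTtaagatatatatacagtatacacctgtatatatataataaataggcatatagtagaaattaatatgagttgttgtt
DFR, chr5:17166033-17166282, minus strand: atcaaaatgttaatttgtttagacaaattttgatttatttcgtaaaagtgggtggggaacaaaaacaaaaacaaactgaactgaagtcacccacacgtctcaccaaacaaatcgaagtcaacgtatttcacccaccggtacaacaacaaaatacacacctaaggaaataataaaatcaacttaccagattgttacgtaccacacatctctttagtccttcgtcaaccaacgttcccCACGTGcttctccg
SP1L4, chr5:5077950-5078199, plus strand: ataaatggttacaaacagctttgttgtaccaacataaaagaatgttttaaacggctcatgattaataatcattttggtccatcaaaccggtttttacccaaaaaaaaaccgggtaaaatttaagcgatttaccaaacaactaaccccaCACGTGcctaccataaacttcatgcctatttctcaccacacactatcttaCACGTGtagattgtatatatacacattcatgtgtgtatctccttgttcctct

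FKF1 held 2 evening elements, which began 240 and 186 bases before the start, and JAL22 had 1 at 169. TT4 had a G-box at 233 and an evening element at 84, DFR a G-box at 14, and SP1L4 G-boxes at 102 and 52. None of the 12 largest rises held a G-box, and 3 of the 12 largest falls did, although 243 of the 250 bases read for COR15B, one of those rises, lie in an annotated exon. Across 19862 promoters of tested protein-coding genes, the evening element stood in 4.95%, in 8.14% of those that rose at least 2-fold, in 9.69% of those that rose at least 4-fold and in 3.93% of those that fell at least 2-fold. The G-box stood in 7.58% of all of them, in 6.31% of the 2-fold rises and in 9.17% of the 2-fold falls. Among 4-fold changes it stood in 7.61% of the rises, near the share of all promoters, and in 10% of the falls. The site II element TGGGCC, common before genes of growing and dividing cells, was in 16.4% of all promoters, 10.4% of the 2-fold rises and 18.4% of the 2-fold falls, but in only 8.82% of the 4-fold rises and 9.43% of the 4-fold falls. The defence-related W-box TTGACC was in 12.2%, 13.9% and 9.49%. Both strands were searched, a G-box can share bases with the ABRE core ACGTGT, and a match is only a run of letters.

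The largest rises among genes with a symbol, at least 5 CPM at 28 °C and no overlap between temperatures included a jasmonate-inactivating enzyme, wax and suberin genes and an immune receptor. ST2A (AT5G07010), a sulfotransferase for hydroxyjasmonate, was at 0.521, 1.21 and 2.01 CPM at 22 °C and at 24.7, 45.5 and 147 CPM at 28 °C (log2 change 5.53, SE 0.29, adjusted p = 2.93e-09). FAR1 (AT5G22500), a fatty acid reductase that makes fatty alcohols, went from 3.25, 4.77 and 7.23 to 72.6, 85.1 and 174 CPM (log2 4.31, SE 0.22). ADS1 (AT1G06080), a fatty acid desaturase, went from 4.97, 6.08 and 14.9 to 74.6, 116 and 189 CPM (log2 4.03, SE 0.28). In each of these 3 genes the lowest warm library lay well above the highest cool one. CYP86B1, a cytochrome P450 of suberin synthesis, rose by 3.61 on the log2 scale, and the pectin-modifying gene ATPMEPCRD by 3.68. LAC5, a laccase, went from a median of 0.435 to 7.57 CPM. BGAL7, a beta-galactosidase, rose by 4.53 and ENODL1, an early nodulin-like protein, by 5.01. FLS2 (AT5G46330), the receptor for bacterial flagellin, went from 0.848, 1.82 and 6.41 to 19, 35.6 and 78.6 CPM (log2 3.91, SE 0.37). HIS1-3, a stress-inducible linker histone, rose by 3.45 (5.13, 11.6 and 20.4 against 66.7, 105 and 193 CPM).

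The largest falls under the same conditions covered a wide mix of genes. ELIP2 (AT4G14690), an early light-induced protein of the chloroplast, was at 3.27, 89.4 and 173 CPM at 22 °C and at 0.274, 0.726 and 2.23 CPM at 28 °C (log2 -6.42, SE 0.55, adjusted p = 1.79e-07). TT4 (AT5G13930), chalcone synthase and so the entry to the flavonoid pathway, went from 91, 296 and 439 to 2.16, 5.56 and 12.7 CPM (log2 -5.31, SE 0.42). In both genes replicate 2 of BRL3ox was the lowest cool library. HTA11 (AT3G54560), a gene for a histone of the H2A.Z variant type, stood at 35.5, 44.8 and 62.2 CPM in the cool and at 4.09, 5.3 and 11 CPM in the warmth (log2 -3.00, SE 0.16, adjusted p = 3.32e-09). H2A.Z is known from the study of ambient temperature responses, where its nucleosomes lose hold of warmth-induced genes. The amount of H2A.Z protein was not measured here. SP1L4, a SPIRAL1-like microtubule protein, fell by 3.44 on the log2 scale (5.53, 17.5 and 20.8 against 0.755, 1.58 and 2.41 CPM) and RTFL6, a small ROTUNDIFOLIA-like peptide, by 3.38 (4.1, 7 and 8.36 against 0.421, 0.611 and 1.01 CPM). LTP6, a lipid transfer protein, fell by 4.02, and DOT3, of the NPH3 family, by 3.49. GPX7, a glutathione peroxidase, fell by 3.17, the antenna gene LHCB4.3 by 3.14, and the glycine-rich protein gene GRP9 by 4.61 (-5.29 without replicate 2 of pSUC2-BRL3 at 28 °C).

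**Figure D2:**
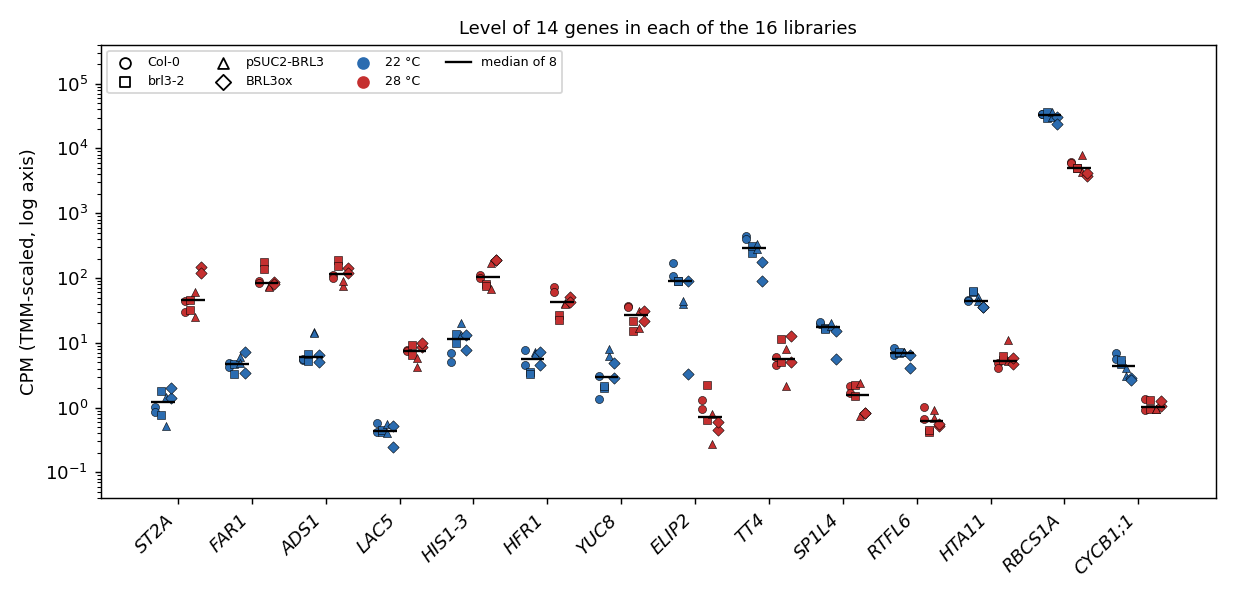
CPM of 14 genes (log axis) in each of the 16 libraries, blue at 22 °C and red at 28 °C, shaped by genotype, with a bar at the median of 8 libraries. The 14 genes show no overlap between the temperatures, and the low cool point of ELIP2, at 3.27 CPM, is replicate 2 of BRL3ox.

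By difference in CPM rather than by fold, the largest falls under the same conditions were photosynthesis genes. The largest rises were a mixed set of abundant transcripts. CPM are shares of a scaled library and not numbers of molecules. RBCS1A (AT1G67090), a small subunit of the carbon-fixing enzyme Rubisco, was at 23799, 32256 and 36634 CPM at 22 °C and at 3779, 4998 and 7847 CPM at 28 °C (log2 -2.61, SE 0.13, adjusted p = 2.01e-09). CAB1 (AT1G29930), a chlorophyll-binding antenna protein, went from 26591, 40947 and 56906 to 9523, 11177 and 17592 CPM (log2 -1.73, SE 0.13). Neither gene had overlapping groups. CAB2 (log2 -2.12), LHB1B1 (-2.08) and RCA, Rubisco activase (-1.18), made up the 5 largest falls in CPM with them. The 5 largest rises in CPM were smaller: TCTP, a conserved growth-related protein, went from a median of 1816 to 3257 CPM (log2 0.89), DI19, a drought-induced zinc finger protein, from 380 to 1092 (1.45), and MLP28, a major latex protein-like gene, from 251 to 866 (1.76). JAL22, a jacalin-related lectin, rose by 2.17 and the dehydrin ERD14 by 1.53. By level, 59.8% of the genes above 100 CPM fell and 19.2% rose (median log2 -0.50), whereas 37.8% of those between 1 and 10 CPM rose and 25.6% fell (median 0.13). Among protein-coding genes, those that rose had a median length of 2785 bases and those that fell 2116, against 2395 over all tested. The rises of at least 2-fold had a median of 2295 bases and such falls 1816. A single exon was found in 23.4% of the 2-fold rises and 16% of the 2-fold falls, against 13.5% of all tested. At 4-fold or more these shares were 25.8% and 22.8%, and over all rises and all falls they were 14.9% and 10.8%.

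Nuclear genes of the photosystems, antennae and Calvin cycle fell together. All 38 tested of 39 listed fell, where 31.9% of all genes did, and 33 of them had no overlap (median log2 -1.31, against 0.03 over all genes tested). With total-count scaling 36 still fell. They held a median of 22.5% of a library's counts at 22 °C and of 10.9% at 28 °C, without overlap. RBCS2B fell by 2.41 and RBCS1B by 2.74, GAPA of the Calvin cycle fell by 2.18, and the photosystem I antenna genes LHCA1 and LHCA2 fell by 1.37 and 0.98. Reads of CAB and RBCS genes can be shared among near-identical copies, so single members are less certain than the group, and LHB1B2 is listed at 0 in every library. Of 16 chlorophyll synthesis genes 14 fell and none rose (median -0.91). With total-count scaling 9 fell and 2 rose. CRD1 (AT3G56940), a cyclase subunit of that pathway, stood at 2974, 3763 and 4497 CPM in the cool and at 995, 1183 and 1513 CPM in the warmth (log2 -1.60, SE 0.11), with no overlap. CAO, which makes chlorophyll b, fell by 1.34 and HEMA1, at the head of the pathway, by 1.24. Of 14 genes of light stress and photoprotection 11 fell and 1 rose (median -1.03, 9 and 4 with total-count scaling), among them ELIP1 (log2 -5.45), the tocopherol cyclase gene VTE1 (-2.23) and the one-helix protein gene OHP1 (-1.72).

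The chloroplast's own genes moved the same way. Of 119 plastid-encoded genes tested 109 fell and none rose (median -2.05), 38 of them without overlap between temperatures, and with total-count scaling 95 fell and 1 rose. They held 1.63% to 4.66% of counts at 22 °C and 0.9% to 1.54% at 28 °C. Of 50 mitochondrial genes tested 22 rose and 13 fell (median 0.30). These counts were 30 and 10 with total-count scaling, and 35 and 12 without the filter on low counts (median 0.84). By genotype the mitochondrial median was -0.06 in Col-0, 0.01 in brl3-2, 0.75 in pSUC2-BRL3 and 1.16 in BRL3ox. Only 32 of the 50 genes changed with one sign in all 4 genotypes. Mitochondrial genes held 0.235% to 0.778% of counts in the cool and 0.123% to 0.203% in the warmth. Libraries were made from polyadenylated RNA, which samples organelle transcripts unevenly. In whole hypocotyls fewer cells of a type and less RNA per cell cannot be told apart.

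Markers of other tissues were read beside these falls. Of 9 stomatal lineage genes 6 fell and 1 rose (median -1.23), and with total-count scaling 5 fell and 2 rose. MUTE, a master gene of the lineage, was at 0.447, 1.06 and 1.53 CPM in the cool and 0.134, 0.259 and 0.412 CPM in the warmth (log2 -2.03), POLAR fell by 1.86 and the signal peptide gene EPF1 by 1.73, while FAMA, of guard cells, was not called (log2 0.05). The summed level of the list was 48.2 to 70.6 CPM at 22 °C and 42.7 to 55.7 CPM at 28 °C. Of 7 tested shoot apex markers of 9 listed, 4 fell and 2 rose (summed 34.5 to 82.4 and 71 to 101 CPM), CUC2 and CUC3 at log2 -1.63 each and KNAT1 at 1.00, while WUS had a highest level of 0.0724 CPM in any library. The fall of CUC1 (adjusted p = 0.0466) and the rise of STM (adjusted p = 0.0327) lay near the threshold. Seed storage genes were low and uneven, with 3 falls and no rise among 10 tested, against 6 falls without replicate 1 of Col-0 at 28 °C and 1 fall and 2 rises with total-count scaling (summed 3.3 to 69.7 and 8.54 to 72.9 CPM). Of 7 tested root markers 2 rose and 2 fell, with CASP1 of the root endodermis up by 2.13 and WOX5 of the root tip at log2 -3.74 (summed 57.4 to 113 and 81.1 to 103 CPM). The other root marker that fell, PHT1;4 (adjusted p = 0.0492), lay near the threshold. The root median of -0.22 became 0.12 in libraries thinned to the same total count and 0.35 with total-count scaling. Xylem markers had 3 rises (27.3%, below the 33.6% of all genes tested) and no fall among 11, and 7 rises with total-count scaling (summed 49.4 to 82 and 54.6 to 93.9 CPM). Phloem markers had 6 falls and 2 rises among 12 (median -0.37, summed 449 to 562 and 303 to 449 CPM), which turned to 3 falls and 6 rises with total-count scaling (median 0.20). In the phloem list PP2-A1 fell by 1.21 and the sugar exporter gene SWEET11 by 1.14, and SWEET12 rose by 0.91. The part of tissue composition in any change was not tested.

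Flavonoid genes fell more than any other list examined, by median. All 15 tested enzyme genes of 16 listed fell (median -3.21), and with total-count scaling 13 did. Replicate 2 of BRL3ox at 22 °C was the lowest cool library for TT4, DFR, FLS1, LDOX, PAL1 and C4H, and only 3 of the 15 genes had no overlap. FLS1, flavonol synthase, was at 1.19, 26.8 and 110 CPM at 22 °C and at 0.583, 0.974 and 2.2 CPM at 28 °C (log2 -4.55), so that the lowest cool library lay within the warm range. PAL1, the first step of phenylpropanoid synthesis, fell by 2.36 and C4H by 1.17. LDOX, an anthocyanin enzyme, fell by 4.52 (-5.44 without replicate 2 of BRL3ox at 28 °C). The median was -3.52 in brl3-2, -3.54 in pSUC2-BRL3 and -1.06 in BRL3ox, and it was lower than these in Col-0. Of 14 tested regulators 9 fell and 1 rose, with 6 falls and 4 rises under total-count scaling. The bHLH gene TT8 (log2 -4.32), the flavonol regulator MYB12 (-3.71) and GL3 (-2.89) fell, from at most 2.33, 2.57 and 1.75 CPM. The anthocyanin regulators PAP1 (-0.05, adjusted p = 0.948) and PAP2 (0.67, adjusted p = 0.397) were not called in the pooled fit. PAP1 fell in Col-0 (4.12 and 3.49 to 0.492 and 1.01 CPM) and brl3-2. It rose in BRL3ox (0.571 and 0.0629 to 3.33 and 4.84 CPM), with overlap in pSUC2-BRL3. The genotype-by-temperature test called PAP1 (adjusted p = 0.0302). PAP2, at most 0.96 CPM, was lower with warmth in Col-0 and higher in the other genotypes. Aliphatic glucosinolate genes, which make mustard oil precursors, had 13 falls and no rise among 17 (median -1.97, 8 falls with total-count scaling). Their group held MAM3 (log2 -4.27), BCAT4 (-3.44, and -5.28 without replicate 2 of pSUC2-BRL3 at 28 °C) and the myrosinase gene TGG2 (-3.21), while the regulator MYB28 was not called (-0.64, adjusted p = 0.0696).

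Genes of the elongation route moved in both directions. In the list of the PIF4 pathway and its light inputs 10 of 21 rose (47.6%, against 33.6% of all genes tested) and 6 fell (28.6%, against 31.9%), with a median of 0.34. With total-count scaling 13 rose and 2 fell, near the shares of all genes under that scaling. PIF4 itself, the central factor, was at 88.8, 154 and 293 CPM at 22 °C and 96.9, 156 and 180 CPM at 28 °C (log2 -0.17, SE 0.16, adjusted p = 0.364), and total-count scaling put it at 0.42. HFR1 (AT1G02340), a bHLH protein that restrains PIF factors, stood at 3.33, 5.66 and 7.76 CPM in the cool and at 22.8, 42.1 and 73.8 CPM in the warmth (log2 2.97, SE 0.15, adjusted p = 2.01e-09), with no overlap. PRE5, a growth-promoting bHLH gene, rose by 3.63 at levels up to 2.06 CPM. PIL1, a shade marker, rose by 1.59. PHYB and ELF3, the thermosensors of the textbook route, rose by 0.54 and 0.80, although PHYB was at -0.07 in Col-0 alone and was not called without brl3-2. PIF7 fell by 1.71 and HY5, the light-growth factor that opposes PIF4, fell by 1.14. Of 29 auxin genes 18 rose and 5 fell (median 0.75, 23 and 1 with total-count scaling, and 2 falls without Col-0). Only 17 of the 29 changed with one sign in all 4 genotypes, and the genotype-by-temperature test called 3. The auxin median was 1.05 in Col-0, 0.84 in brl3-2, 0.18 in pSUC2-BRL3 and 1.06 in BRL3ox. YUC8 (AT4G28720), an auxin synthesis enzyme and PIF4 target, went from 1.37, 3 and 8.04 to 15.1, 26.4 and 37 CPM (log2 2.87, SE 0.29). Its relatives differed: YUC2 rose by 0.75 and YUC5 fell by 2.35. The response genes IAA29 and SAUR22 rose by 2.03 and 2.46, and SAUR22 lies among close copies whose reads may be shared. TAA1, the enzyme before the YUC step, fell by 0.60 in the pooled fit, but with total-count scaling it was at -0.02 and not called. Its pooled call was also lost without Col-0 and without pSUC2-BRL3. The genotype-by-temperature test called TAA1 (adjusted p = 0.0367). It went from 14.7 and 14.8 to 16.6 and 20.6 CPM in brl3-2 and was lower with warmth in the other genotypes.

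Of 21 brassinosteroid genes 10 rose and 2 fell (median 0.46), and with total-count scaling 17 rose and none fell. Only 11 of the 21 changed with one sign in all 4 genotypes, and the median in BRL3ox was near 0. Receptor genes were among the rises. BRL1 (AT1G55610) went from 0.675, 1.64 and 2.54 to 4.55, 5.11 and 7.82 CPM (log2 1.86, SE 0.16), and BRI1 (AT4G39400) from 110, 159 and 191 to 213, 265 and 302 CPM (log2 0.77, SE 0.14), both without overlap. The change of BRI1 differed between genotypes (adjusted p = 0.013), at 1.34 in Col-0, 1.18 in brl3-2, 0.25 in pSUC2-BRL3 and 0.30 in BRL3ox. The co-receptor gene BAK1 rose by 0.83, and the receptor-like gene BRL2 by 0.65. The synthesis genes ROT3 and BR6OX1 rose by 1.00 and 1.33. BR6OX1 rose without overlap in Col-0 (2.39 and 2.46 to 7.65 and 6.66 CPM) and in brl3-2. Its warm and cool libraries overlapped in pSUC2-BRL3 (1.9 and 2.72 against 2.57 and 4.32 CPM) and in BRL3ox. BES1, the transcription factor at the end of the route, fell by 0.90, a call that total-count scaling ended. BRL3 (AT3G13380) rose by 1.26 (SE 0.20, adjusted p = 6.82e-05), from a median of 29 to 99.7 CPM. That value mixes the endogenous gene and the transgenes, which these counts do not separate: by genotype the change was 0.78 ± 0.30 (SE) in Col-0, 0.42 ± 0.46 in brl3-2, 1.74 ± 0.30 in pSUC2-BRL3 and 1.61 ± 0.30 in BRL3ox. Ethylene genes had 15 rises and no fall among 19 (median 0.85), and 12 of the 19 changed with one sign in all 4 genotypes. The genotype-by-temperature test called 4 of them, the receptor gene ERS2, the kinase gene CTR1 and the F-box genes EBF1 and EBF2, which restrain ethylene responses. EBF2 changed by 2.79 in brl3-2 and by 0.15, 0.31 and 0.44 in Col-0, pSUC2-BRL3 and BRL3ox. The pooled call of EBF2 was lost without either cool library of brl3-2, and that of ERS2 (adjusted p = 0.0399) without single libraries of Col-0, brl3-2 or BRL3ox. ACS8, an enzyme of ethylene synthesis, went from 0.358, 3.04 and 4.22 to 11.9, 14.6 and 21.2 CPM (log2 2.64, SE 0.31), the receptor gene ETR2 rose by 1.42 and the signalling gene EIN2 by 1.13. Gibberellin genes had 9 rises and 4 falls among 20 (median 0.39, 14 and 3 with total-count scaling). The early synthesis genes GA1 and GA2 rose by 1.58 and 1.51, and GA3OX1, of the last step, fell by 2.23. For the wall, 13 of 26 genes of expansins, xyloglucan enzymes and cellulose synthases rose and 3 fell (median 0.30). These became 17 and 1 with total-count scaling, 8 rises without brl3-2 and 5 falls with DESeq2. XTH15 rose by 3.23 and XTH17 by 2.22, both xyloglucan enzymes, the cellulose synthase gene CESA3 rose by 0.69, and EXPB1 fell by 1.46. XTH24 rose by 1.87 with overlap, and replicate 2 of BRL3ox at 22 °C had 631 CPM where the cool median was 113.

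Cell division genes fell almost throughout. Of 23 genes 22 fell and 1 rose (median -0.94), 7 without overlap. CYCB1;1, a mitotic cyclin, was at 2.7, 4.37 and 6.87 CPM in the cool and at 0.919, 1.01 and 1.34 CPM in the warmth (log2 -1.95, SE 0.17). CYCA1;1 fell by 1.54 and PCNA1, the replication clamp, by 1.59. With total-count scaling 10 of the 23 fell and 1 rose (median -0.38). Of 17 tested genes annotated as cytosolic ribosomal proteins 11 fell and 1 rose (median -1.20, 10 and 5 with total-count scaling), a list that holds only a small share of the ribosome's genes.

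**Figure D3:**
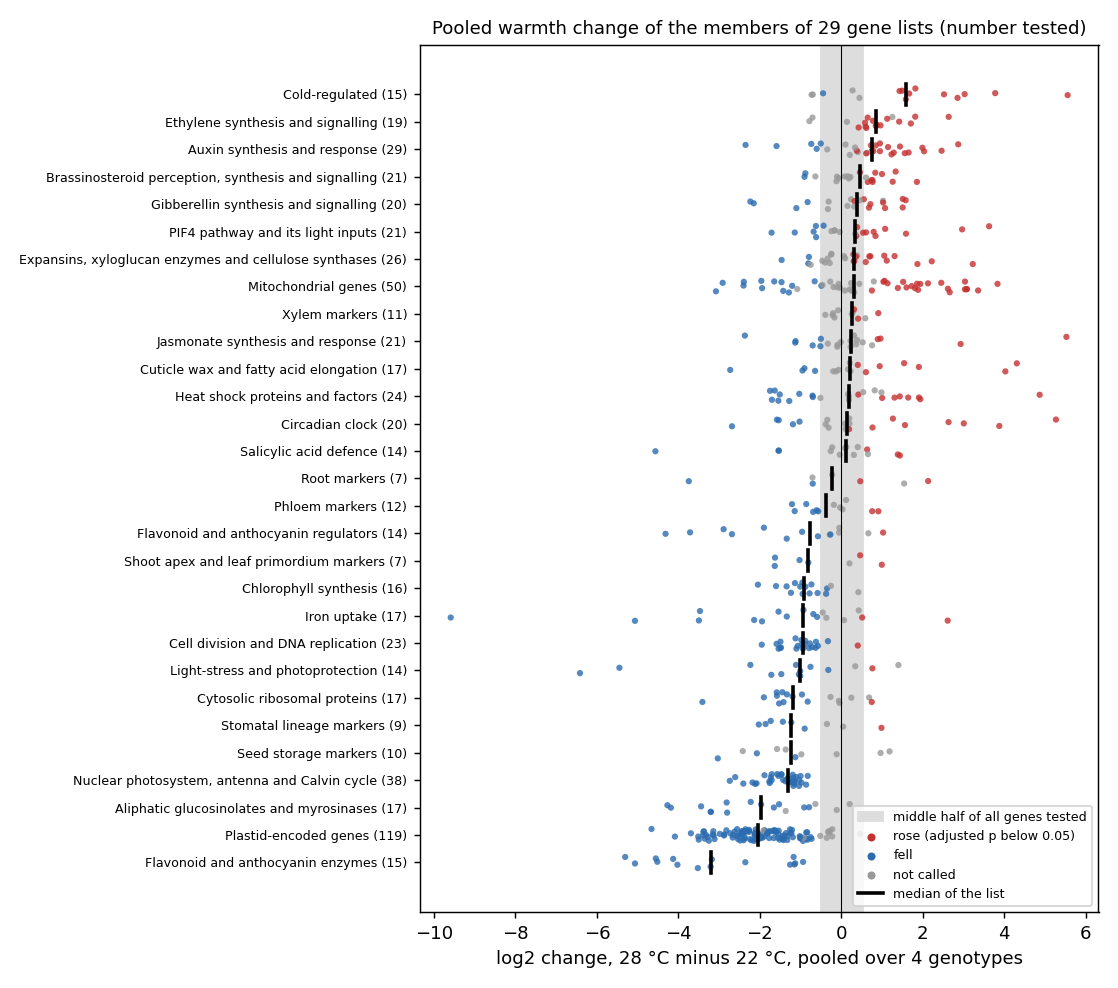
Pooled log2 change at 28 °C against 22 °C (horizontal axis) of each tested member of 29 gene lists (rows, number tested in brackets), red where it rose, blue where it fell and grey where it was not called, with a black bar at the list median and a grey band over the middle 50% of all genes tested. Flavonoid enzymes (median -3.21) and plastid-encoded genes (-2.05) lie lowest, and cold-regulated (1.59) and ethylene genes (0.85) highest.

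Of 20 clock genes 8 rose (40%) and 5 fell (25%), not far from the shares of all genes tested (median 0.15, 12 and 5 with total-count scaling). The morning factors LHY and CCA1 fell: LHY (AT1G01060) went from 126, 352 and 811 to 13.2, 58.8 and 143 CPM (log2 -2.68, SE 0.30, adjusted p = 2.3e-06) and CCA1 from 169, 305 and 442 to 37, 94.1 and 237 CPM (log2 -1.54, SE 0.20). In both genes the ranges overlapped, and replicate 2 of BRL3ox was the lowest cool library. Their relative RVE1 fell by 1.58 and the morning co-activator gene LNK2 by 1.19. FKF1 (AT1G68050), a blue-light receptor of day-length sensing, was at 0, 0.0619 and 0.629 CPM at 22 °C and at 1.34, 4.28 and 12.9 CPM at 28 °C (log2 5.27, SE 0.57, and 6.08 without replicate 2 of BRL3ox at 22 °C). PRR5 rose by 3.88 (5.28 without that library), PRR3 by 3.01, ELF4 of the evening complex by 2.63, GI by 1.56 and TOC1 by 1.27. The time of harvest is not given in the sources used here, and its part in these values was not tested.

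**Figure D4:**
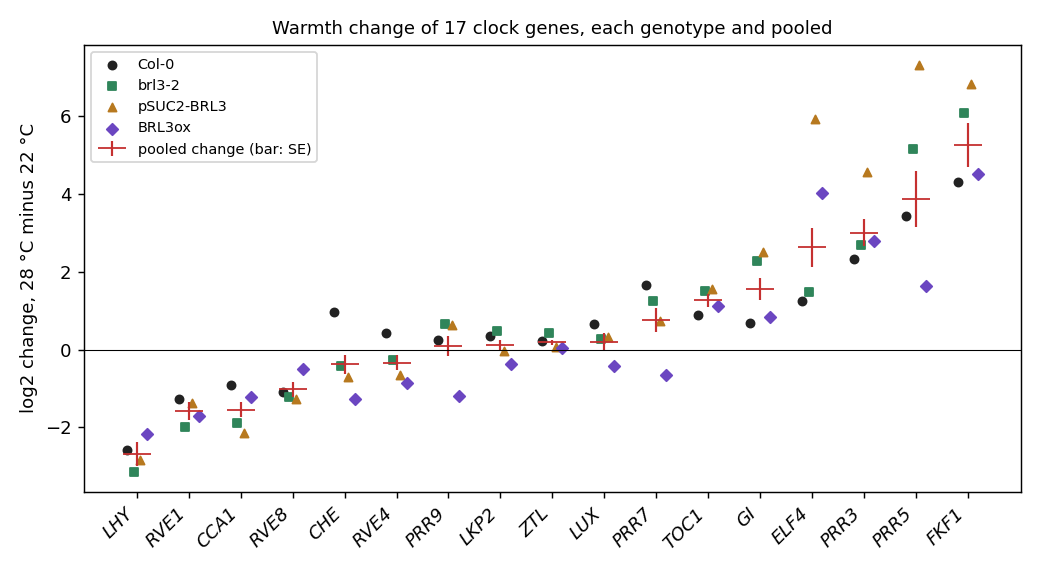
Log2 change at 28 °C against 22 °C (vertical axis) of 17 clock genes with a symbol, in each genotype (shapes) and pooled (red mark with its SE), ordered by the pooled change. LHY, RVE1 and CCA1 lie below 0 and PRR3 and FKF1 above 0 in each of the 4 genotypes.

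Genes named for cold rose in the warmth. Of 15 cold-regulated genes 10 rose, each at least 2-fold, and 1 fell (median 1.59). COR15B (AT2G42530), a chloroplast protein of freezing tolerance, was at 0, 0.146 and 0.314 CPM at 22 °C and at 0.656, 3.71 and 51.8 CPM at 28 °C (log2 5.56, SE 0.93, adjusted p = 0.000103). The highest value came from replicate 1 of pSUC2-BRL3, without which the change was 4.29. Its neighbour and close copy COR15A rose by 3.03 (2.11 without that library), LTI78 by 2.52 (1.84 without it) and COR414-TM1 by 2.85 (3.67 without replicate 2 of BRL3ox at 22 °C). Reads of COR15A and COR15B may be shared. DREB1A, a CBF factor that switches on such genes, rose by 3.78, while CBF1 (0.28, adjusted p = 0.751) and CBF2 (0.45, adjusted p = 0.573) were not called.

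In the heat shock list 8 of 24 rose (33.3%) and 9 fell (37.5%), close to the 33.6% and 31.9% of all genes tested (median 0.19), and with total-count scaling 12 rose and 4 fell. HSC70-1 (AT5G02500), the most abundant chaperone of the list, was at 1818, 3522 and 3844 CPM in the cool and at 586, 883 and 1946 CPM in the warmth (log2 -1.75, SE 0.17, adjusted p = 5.92e-07). HSP101, the heat tolerance chaperone, fell by 1.03 and the heat-induced factor HSFA2 by 1.70, a call lost with total-count scaling. HSP22.0, a small heat shock protein, rose by 4.87, from 5 counts in all 8 cool libraries to 299 in the warm ones (5.79 without replicate 2 of brl3-2 at 22 °C). HSFA1A and HSFA1B, master heat factors, rose by 0.42 and 1.31.

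Of 17 tested iron uptake genes 11 fell and 2 rose (median -0.93), with 6 falls and 4 rises under total-count scaling. The iron median was -2.15 in Col-0, -1.13 in brl3-2, -0.18 in pSUC2-BRL3 and -0.57 in BRL3ox. Only 11 of the 17 changed with one sign in all 4 genotypes, and the genotype-by-temperature test called 2. IRT1 (AT4G19690), the iron transporter of the root surface, had 575 counts in the 8 cool libraries and 0 in the 8 warm ones, at least 334-fold lower if 3 counts over the warm group are allowed. The iron regulators BHLH100 and BHLH101 fell by 5.07 and 3.50, NAS4, which makes the metal chelator nicotianamine, fell by 3.47, and FIT was not called (-0.37, adjusted p = 0.241). In the salicylic acid list 3 of 14 rose and 3 fell (21.4% each, below the shares of all genes tested), with 1 to 5 rises when single genotypes were left out and 10 rises and 2 falls with total-count scaling. PR5, a defence protein gene, was at 1.23, 4.12 and 6.6 CPM in the cool and at 0, 0.1 and 0.402 CPM in the warmth (log2 -4.56, SE 0.48), and the defence factor WRKY70 fell by 1.53. In the jasmonate list 4 of 21 rose (19%) and 6 fell (28.6%), both below the shares of all genes tested. These became 10 and 2 with total-count scaling, 8 and 3 without Col-0, and 7 rises without replicate 1 of Col-0 at 22 °C. Besides ST2A, VSP2, a storage protein induced by jasmonate, rose by 2.93, and LOX2 of jasmonate synthesis fell by 2.37. Among 17 tested wax and fatty acid genes 7 rose and 4 fell (median 0.21, 12 and 3 with total-count scaling). FAD8, a plastid desaturase known to be cold-induced, fell by 2.73, and FAR5 rose by 1.91.

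The same direction held across most genotypes. Of the 13436 called genes, 11964 (89%) changed with one sign in all 4 genotypes, against 62.5% of all genes tested, and of the 4878 changed at least 2-fold, 96.2% did. The calls came from the same libraries as the signs, so the shares among called genes are high in part by selection. The 62.5% includes the called genes. The pooled fit also reached genes that single genotypes did not: 1263 called genes were called in none of the 4 alone, 676 higher and 587 lower, with a median absolute log2 change of 0.48. The median SE of a called gene was 0.134 in the pooled fit and 0.229 in Col-0 alone. In the other direction, 2284 genes were called in at least 1 genotype but not in the pooled fit, 239 of them in opposite directions in different genotypes. When 3 genotypes were fitted and the fourth, which shares no library with them, was read beside them, Pearson's r across 20505 genes was 0.792 for Col-0, 0.87 for brl3-2, 0.841 for pSUC2-BRL3 and 0.801 for BRL3ox. The sign was the same for 79.4%, 86.3%, 85.8% and 80.5% of all genes tested, and for 89.7%, 97.2%, 96.7% and 89.5% of those called in the other 3. Genes within a library are not independent replicates, and all estimates share the difference in depth between temperatures.

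A genotype-by-temperature test called 455 genes (2.22%), 278 of which were also called in the pooled fit. That count turned on single libraries: it was 0 without replicate 1 of Col-0 at 28 °C (3229 genes at an unadjusted p below 0.05) and 8053 without replicate 1 of BRL3ox at 22 °C. DESeq2 called 2759 genes in the same design. The genes with the narrowest spread of change among those at least 2-fold and without overlap were chosen for it and carry no test. CYCA2;3, a mitotic cyclin, changed by -1.44, -1.53, -1.43 and -1.53 in Col-0, brl3-2, pSUC2-BRL3 and BRL3ox, and APG2 by -1.08, -1.03, -0.95 and -1.05. ALPHA DOX2, an alpha-dioxygenase, changed by 1.90, 1.79, 1.86 and 1.78. Also chosen were PRXR1, AO1 and PUM5 among the rises and ROPGEF1 and PGK1 among the falls. The widest spread was chosen among genes that the interaction test called. DFR (AT5G42800), dihydroflavonol reductase, changed by -7.18, -8.05, -6.94 and -1.46 in the same order, and FLS2 by 3.64, 6.12, 3.15 and 3.24. MBF1C, a heat-responsive coactivator, changed by 0.68, -3.06, -1.70 and -1.99, so its pooled value of -1.51 describes the other 3 genotypes and not Col-0. LSU2, of the sulfur-limitation response, changed by -3.88, -1.39, -0.29 and -0.02, and total-count scaling ended its pooled call and that of MBF1C. LHT1, an amino acid transporter, changed by 0.33, 1.58, 3.54 and 2.39, and OEP6, of the chloroplast envelope, by -4.21, -3.38, -1.17 and -1.25.

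**Figure D5:**
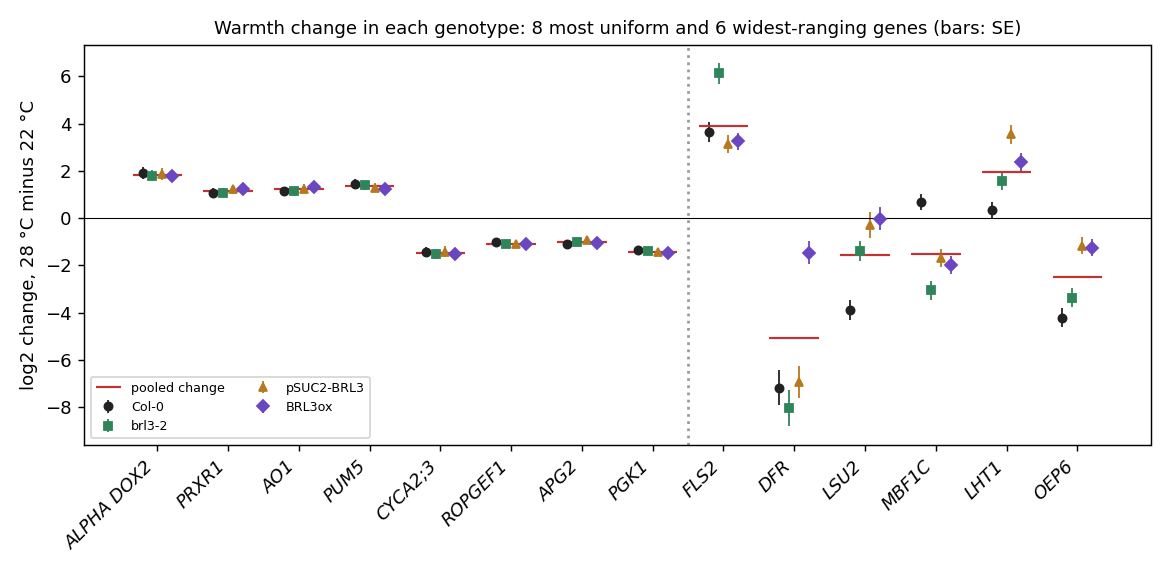
Log2 change at 28 °C against 22 °C (vertical axis, bars are SE) in each of the 4 genotypes for the 8 most uniform genes (left of the dotted line) and the 6 with the widest range (right), with a red line at the pooled change. CYCA2;3 lies between -1.53 and -1.43 in all genotypes, whereas DFR runs from -8.05 in brl3-2 to -1.46 in BRL3ox.

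Adjacent tested genes shared the sign of their change in 52.7% of 19858 pairs, against 49.3% of 19363 pairs 100 genes apart. Among the pairs in which both genes changed at least 2-fold, 63.7% of 1172 adjacent pairs moved the same way, against 51.3% of 1092 pairs 5 genes apart and 48.1% of 1036 pairs 100 genes apart. Close copies and overlapping transcripts are among the adjacent pairs, and their part was not tested. The chromosomes differed little, with 31.3% to 35.1% of their tested genes rising and 30.4% to 33.9% falling on the 5 nuclear chromosomes.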

How the data were processed

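Raw read counts per gene for the 16 libraries were used as the authors deposited them. Per the labels' protocols, stranded mRNA libraries were made from RNA whose integrity number passed 7. Per the submitters' processing notes, reads were handled with FastQC 0.11.2, Trimmomatic 0.38, HISAT2 2.1 on TAIR10 and featureCounts 1.6.2, and edgeR 3.34.1 was used. No source used here gives the annotation, the strand setting or the time of harvest, so overlapping and antisense genes cannot be told apart. Of 33296 named genes, 33011 matched a locus of TAIR10.1 and 7100 had no count in any library. The 1 line without a name held at most 0.00463% of a library's counts and was left out.

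Genes were tested with edgeR 4.0.16 (R 4.3.3, limma 3.58.1) by the two-sided quasi-likelihood F-test, with genotype and temperature as terms, TMM scaling and 11 residual degrees of freedom. Filtering at 10 counts and a total of 15 left 20505 genes, and a Benjamini-Hochberg adjusted p below 0.05 was a call. The interaction of genotype and temperature was 1 test of its terms together, with 8 residual degrees of freedom, and within-genotype changes came from a fit with a coefficient per group. The scripts were tested on simulated data. For principal components, CPM were put on a log2 scale after adding a prior count of 2. Figures used matplotlib 3.10.9.

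The members, lists and alternatives were chosen with earlier results of these data known. Named genes are BRL3, then among called genes with a symbol, a mean of 5 CPM or more at the higher temperature and no overlap, the 12 largest rises and 12 largest falls, the 5 largest rises and falls in CPM and the 4 most uniform rises and falls, then the 6 with the widest range between genotypes, and up to 6 members per list. PIF4, HY5, BAK1, BES1, EIN2, GI, ELF4, RVE1, LNK2, LTI78, HSFA2, HSP101, CESA3, ERS2, CTR1, EBF1, EBF2, LHB1B2 and WUS fall outside this rule and were chosen after their values were seen. Alternatives were a replicate block, DESeq2 1.42.0, scaling by size factors, testing without the filter, a coefficient per group, thinning to 19013878 counts, nuclear protein-coding genes only, a test against 2-fold, a promoter window of 150 bases, and leaving out libraries or genotypes.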

Additional observations from a re-analysis of the deposited data

Results flagged for a closer look

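Among 98 groups of 8 libraries looked at, for 47 genes and the principal components, 13 held a library far from the rest. Chance gives about 1 in 20 for independent groups of 8 alike libraries. The groups here mixed 4 genotypes and shared libraries, so that rate does not apply to them. Of the 13, 8 concern replicate 2 of BRL3ox at 22 °C. It was the highest cool library for FKF1 (0.629 CPM) and ALPHA DOX2 (26.2 CPM). It was the lowest for ELIP2 (3.27 CPM), LAC5 (0.251 CPM), DOT3 (3.58 CPM), SP1L4 (5.53 CPM) and LHCB4.3 (12.6 CPM). On the first principal component it stood at -19.66. Except for LAC5, each of these values lay towards the warm libraries. Without that library 14619 genes were called in the pooled test, against 13436 with it.

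Replicate 2 of pSUC2-BRL3 at 28 °C was the highest warm library for GRP9 (8.8 CPM), HTA11 (11 CPM) and APG2 (70.9 CPM), in each case towards the cool libraries. Replicate 1 of BRL3ox at 22 °C was the lowest for RTFL6 (4.1 CPM), and replicate 2 of Col-0 at 22 °C was the highest for MLP28 (407 CPM).

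The interaction test called 455 genes, and 15 of the genes named here are among them. They are ADS1 (adjusted p = 0.00992), DFR (adjusted p = 0.0134), MBF1C (adjusted p = 0.0251), OEP6 (adjusted p = 0.0282), LSU2 (adjusted p = 0.032), LHT1 (adjusted p = 0.04) and FLS2 (adjusted p = 0.0456). Members of gene lists among them are EBF2 (adjusted p = 0.00992), BRI1 and ERS2 (adjusted p = 0.013 each), EBF1 (adjusted p = 0.0198), PAP1 (adjusted p = 0.0302), TAA1 (adjusted p = 0.0367), CTR1 (adjusted p = 0.0372) and CESA3 (adjusted p = 0.0493). ADS1 rose in all 4 genotypes.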

How the results depend on the processing

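Pooled calls were stable in number: leaving out 1 library at a time gave 12849 to 14619 called genes, 6557 to 7589 higher and 6220 to 7030 lower, and 4871 to 5345 at 2-fold or more. Apart from total-count scaling, no alternative called any gene in the opposite direction. Total-count scaling called 13023 higher, 2580 lower and 257 in the interaction test. Among named genes called under either scaling, it reversed the sign of GSA1 (0.22), KCS6 (0.52), SUC2 (0.39), RPL18AA (0.53) and PIF4 (0.42), of which GSA1 was called with TMM. It also turned GA20OX1 (0.26), PAP1 (0.51), EXPA1 (0.17), FIT (0.20) and VND6 (0.17) positive, which were called under neither. The number of genes called at 2-fold or more was 2513 when tested against 2-fold (1185 higher, 1328 lower).

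The interaction count was not stable. It ran from 0 to 8053 when 1 library was left out, and was 3116 without replicate 2 of BRL3ox at 22 °C. It was 2759 with DESeq2, 0 without Col-0 (2553 at an unadjusted p below 0.05), 35 without brl3-2 and 2843 without BRL3ox. Without replicate 2 of BRL3ox at 22 °C and replicate 1 or 2 of pSUC2-BRL3 at 28 °C it was 4509 or 4613. The cause was not tested. A lone library left in a group is assumed to vary like the others.

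Same-numbered replicates did not deviate together (correlations -0.26, 0.0201, 0.0699 and -0.0662 by genotype), so the numbers were not taken as pairs. A replicate block gave 201 interaction genes, and 6800 higher and 6425 lower in the pooled test.

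Of 208 named genes 179 were called, and 25 of these lost the call under at least 1 of 30 alternatives. The shorter promoter window lowered motif shares: 5.85% of the 2-fold rises and 3.15% of all promoters held an evening element. Genes under 1 CPM had a median SE of 0.37, against 0.11 above 10 CPM.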
